A study of Sus scrofa with 6 samples.

Results

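The kinesin genes of pig pgEpiSC and pEF cells are described here, with the motors of mitosis set against those of cargo transport and of cilia. Members were chosen by gene symbol alone: every row whose symbol is KIF followed by a number, with the C-terminal motors KIFC1, KIFC2 and KIFC3 and the kinesin light chains KLC2 and KLC4. The rule found 39 of the 20132 rows of the table, and no row matched KLC1, KIF4A or KIF26A, which were not analysed here. No measured value entered the rule, but the family was proposed with the results of these libraries known, so its counts are a description and support nothing beyond the members. The 4 pgEpiSC libraries came from stem cells of the pig pre-gastrulation epiblast, with embryonic day 10 epiblast given as their source. The 2 pEF libraries came from porcine embryonic fibroblasts of fetuses at embryonic day 30. No genetic change or treatment is given for either group. The series calls the libraries biological replicates without naming the line, embryo or culture behind each, so p-values measure the spread between these libraries. RNA was sequenced as strand-specific, rRNA-depleted total RNA, and levels are given in TPM, a transcript abundance corrected for transcript length.

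Kinesins are motors that use ATP to move along microtubules or to take them apart. Mitotic kinesins build the spindle, move and align chromosomes and complete cytokinesis, and their transcripts are known to peak in late phases of the cell cycle. Cargo kinesins carry vesicles, mitochondria and RNA, and several isoforms are best known from neurons. Ciliary kinesins carry material along the axoneme or tune Hedgehog signalling at its tip. Of the members, 12 were placed in the mitotic class, 15 in the cargo class, 9 in the ciliary class and 3 in none of these.

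The listed genes summed to 157288 to 320206 TPM in pgEpiSC and to 93556 and 145611 TPM in pEF, and TPM keeps no read depth. The median log2 fold of the 10424 tested genes (pgEpiSC minus pEF, on log2(TPM + 1)) was 0.48 in the deposited values and 0.06 once median-ratio scaling had been applied, which divides each library by its typical ratio to the average library. Calls of kinesins are therefore given on both scales. In pgEpiSC, all 35 tested kinesins were higher in libraries 2 and 3 than in libraries 1 and 4 as deposited. After scaling 22 of 35 kept this order and 7 of 35 had it reversed. Over all tested genes, libraries 2, 3 and 4 had median ratios of 3.18, 2.13 and 1.03 to library 1 as deposited. The share of all tested genes with this order was not counted. Libraries 1 and 4 lay close together, within 1.5 times of each other for 34 of 35 kinesins. Over all tested genes their median absolute log2 ratio after scaling was 0.183, against 0.341 to 0.504 for the other pairs of pgEpiSC libraries. The 8 epiblast markers summed to 427.1 to 1855 TPM in pgEpiSC and to 0.118 and 0.660 TPM in pEF, with LIN28A, PRDM14 and TRIM71 listed at 0 in both pEF libraries. The 7 fibroblast markers in the table summed to 9.27 to 25.9 TPM and to 970.4 and 2411 TPM, so the labels fit their markers. In bulk RNA, fewer cells of a type and less RNA per cell cannot be told apart.

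The make-up of the kinesin family differed between the cell types. Mitotic members held 49.3, 42.0, 45.8 and 48.8% of the summed kinesin TPM in pgEpiSC (libraries 1 to 4, in that order) but 11.1 and 16.3% in pEF. For cargo members the shares were 33.6, 42.7, 38.7 and 34.2% in pgEpiSC and 68.9 and 69.3% in pEF. Neither pair of ranges overlapped, and shares within a library do not depend on its scale; no test was run on the shares. As means, the mitotic share was 46.5 ± 3.36% (SD, n = 4) in pgEpiSC and 13.7 ± 3.64% (SD, n = 2) in pEF, the cargo share 37.3 ± 4.29% and 69.1 ± 0.289%. The ciliary share was 8.96 ± 0.282% and 8.20 ± 1.38%, with overlapping ranges. Mitotic transcripts thus summed to 1.47, 0.983, 1.18 and 1.43 times the cargo transcripts in pgEpiSC and to 0.161 and 0.235 times in pEF.

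**Figure D1:**
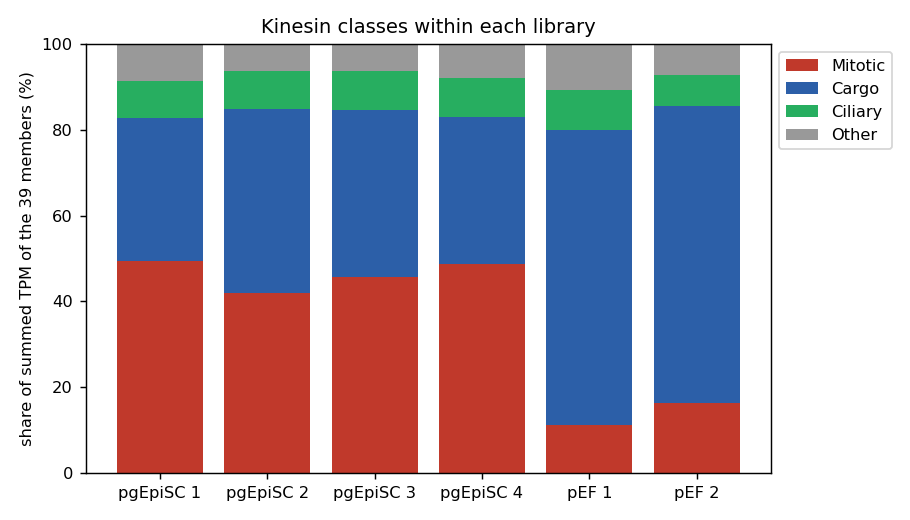
Stacked bars give the share of each kinesin class in the summed TPM of the 39 members (vertical axis, percent) for every library (horizontal axis). The mitotic part takes 42.0 to 49.3% of the bar in the 4 pgEpiSC libraries and 11.1 and 16.3% in the 2 pEF libraries.

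Gene by gene, 35 of the 39 members had at least 1 TPM in at least 2 libraries and were tested with limma, with 0.05 as the threshold on the p adjusted by Benjamini-Hochberg across every gene tested. As deposited, 9 of 11 tested mitotic members were called higher in pgEpiSC and 0 lower, where 18.0% of all tested genes were called higher and 9.43% lower. After scaling 11 of 11 were called higher, against 28.6% of all tested genes. Of 15 cargo members, 3 were called higher and 1 lower as deposited, and 5 higher and 7 lower after scaling, where 29.8% of all tested genes were called lower. Among 7 tested ciliary members 0 were called as deposited, and 4 were called higher and 0 lower after scaling. The median log2 fold was 1.87 for mitotic, 0.15 for cargo and 0.998 for ciliary members as deposited, and 1.54, -0.23 and 0.60 after scaling. Relative to the median of all tested genes these were 1.39, -0.33 and 0.52, and 1.49, -0.29 and 0.54. The groups of libraries did not overlap, with pgEpiSC higher, for 11 of 11 mitotic, 6 of 15 cargo and 4 of 7 ciliary members as deposited (36.6% of all tested genes). With pEF higher this held for 0, 1 and 0 of them (12.9% of all tested genes). After scaling the counts with pgEpiSC higher were again 11, 6 and 4 (36.3% of all tested genes), and those with pEF higher 0, 7 and 1 (34.6%). Of the tested members, 10 passed the filter through pgEpiSC alone. These were 2 mitotic (KIF14 and KIF18B), 6 cargo (KIF5A, KIF5C, KIF21A, KIF21B, KIFC2 and KLC2) and the ciliary KIF17 and KIF24. The 2 that passed through pEF alone were KIFC3 and KIF12. For all of these the filter favoured the direction, so neither direction nor call is support. Every cargo member called higher on either scale is among them, as is KIFC3, the 1 called lower as deposited. The cargo members whose groups did not overlap with pgEpiSC higher are all among them too. Without pEF replicate 1 only KIF15 of the mitotic class was still called as deposited, whereas 9 of 11 were called after scaling. The spread within each gene is shown in the plot of levels by library.

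**Figure D2:**
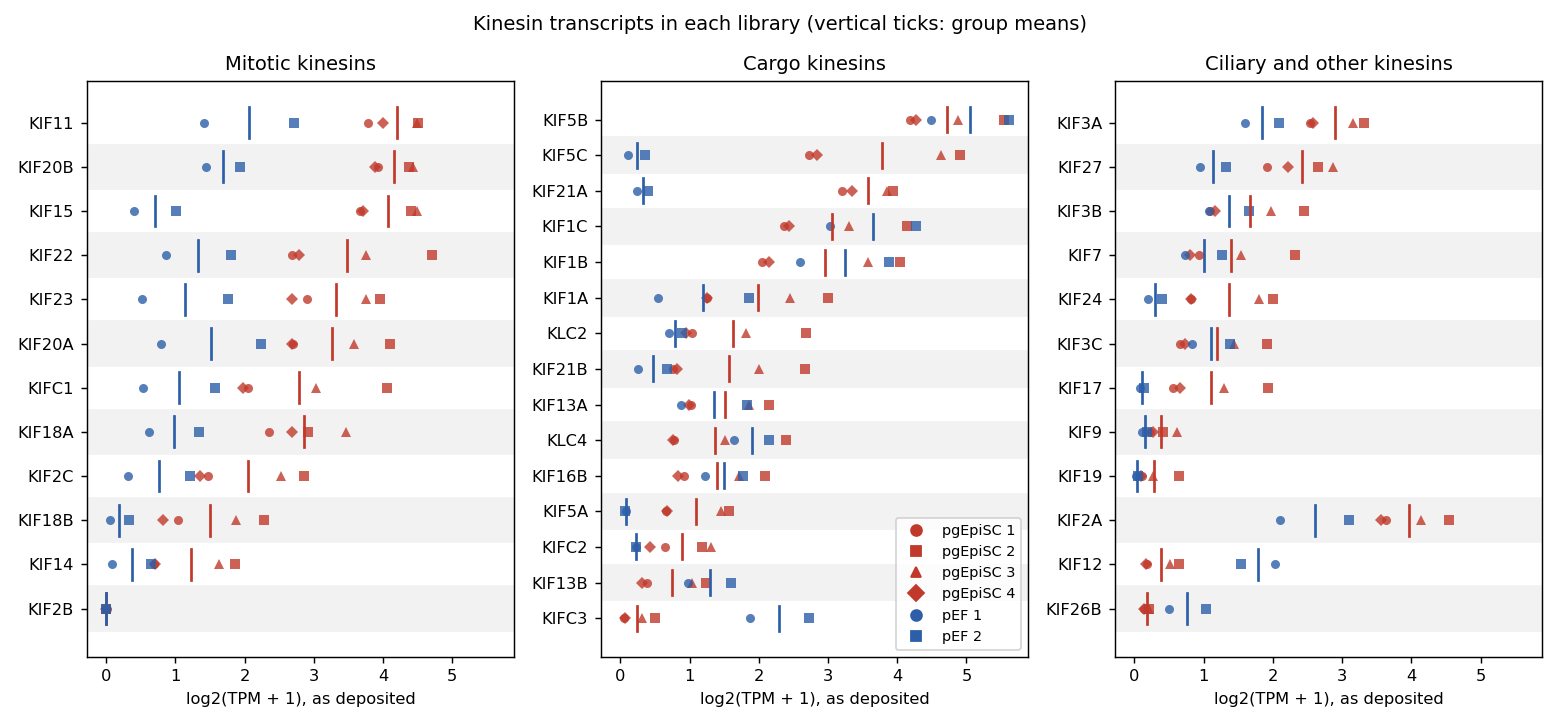
Each point is 1 library (red pgEpiSC, blue pEF; shapes give the library) and each vertical tick a group mean, with log2(TPM + 1) as deposited on the horizontal axis and members in rows by class. In the mitotic panel the red points lie to the right of the blue ones for the 11 tested genes, while in the cargo panel KIF5B, KIF1C and KIF1B overlap and KIF5C, KIF21A and KIFC3 stand apart.

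Motors that push spindle poles apart were higher in pgEpiSC and included KIF15, the largest fold of the mitotic class. KIF11 (ENSSSCG00000010471), the tetrameric kinesin-5 that slides antiparallel microtubules, was at 12.8, 21.8, 21.5 and 15.1 TPM in the pgEpiSC libraries, in the order 1 to 4, while the pEF libraries, in the order 1 and 2, held 1.65 and 5.55 TPM. KIF15, a kinesin-12 that can back up KIF11, was at 11.7, 20.2, 21.5 and 12.1 TPM against 0.323 and 1.01 TPM. Every pgEpiSC library exceeded both pEF libraries for each gene, and KIF15 was the more unequal. KIF11 rose by a log2 fold of 2.14 ± 0.54 (SE, limma adjusted p = 0.00244) as deposited and 1.68 ± 0.33 (adjusted p = 0.00311) after scaling, and its mean was 4.94 times that of pEF. The fold of KIF15 was 3.36 ± 0.54 (adjusted p = 7.01e-06) and 3.06 ± 0.25 (adjusted p = 4.62e-05), with means 24.5 times apart. KIF15 thus made up 47.7, 48.1, 49.9 and 44.5% of the summed TPM of KIF11 and KIF15 in pgEpiSC and 16.4 and 15.4% in pEF. This share was examined after the values were seen. Without pEF replicate 1 the fold of KIF11 was 1.49 as deposited and no longer called (adjusted p = 0.282).

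Motors of the central spindle and of cytokinesis came next. KIF20B, which acts in abscission and in neural progenitors, was at 14.2, 19.7, 20.6 and 13.7 TPM in pgEpiSC and 1.72 and 2.82 TPM in pEF. KIF20A, which brings the chromosomal passenger complex to the central spindle, was at 5.51, 16.1, 11.0 and 5.41 TPM against 0.740 and 3.73 TPM. For KIF23, the motor of centralspindlin, the values were 6.46, 14.4, 12.5 and 5.41 TPM and 0.429 and 2.39 TPM. All 3 were called higher without overlap of the groups. Their folds were 2.46 ± 0.53 (limma adjusted p = 0.000409), 1.75 ± 0.58 (adjusted p = 0.0209) and 2.18 ± 0.57 (adjusted p = 0.00364) as deposited. After scaling these became 2.01 ± 0.30, 1.36 ± 0.28 and 1.85 ± 0.27. KIF14, which recruits citron kinase to the midbody, was low, at 0.610, 2.64, 2.08 and 0.624 TPM against 0.0633 and 0.564 TPM. It was called only after scaling (0.64 ± 0.19, adjusted p = 0.0191; as deposited 0.85 ± 0.42, adjusted p = 0.130), and not once pEF replicate 1 was left out (0.39, adjusted p = 0.181). Without pgEpiSC replicate 2 or 3 KIF14 fell below the filter. As deposited KIF20A, KIF20B and KIF23 also lost their calls without pEF replicate 1 (folds 1.03, 2.22 and 1.56), and KIF20A without pgEpiSC replicate 3 (1.64). With no filter KIF20A and KIF23 lost their calls as deposited, and with a pseudocount of 5 KIF20A did.

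Motors that position chromosomes were higher as well. KIF22, a chromokinesin that binds chromosome arms, was at 5.42, 25.1, 12.5 and 5.93 TPM in pgEpiSC, with library 2 far above the others, and at 0.811 and 2.50 TPM in pEF. KIF18A, which damps chromosome oscillation at the metaphase plate, was at 4.09, 6.54, 10.03 and 5.41 TPM against 0.529 and 1.54 TPM. Its relative KIF18B, active on astral microtubules, was at 1.05, 3.85, 2.68 and 0.765 TPM against 0.0355 and 0.253 TPM. No pgEpiSC library of these genes fell into the pEF range. KIF22 rose by 2.15 ± 0.58 (limma adjusted p = 0.00499), KIF18A by 1.87 ± 0.56 (adjusted p = 0.0111) and KIF18B by 1.32 ± 0.45 (adjusted p = 0.0268). After scaling the folds were 1.75 ± 0.23, 1.54 ± 0.30 and 1.11 ± 0.17, each called. The calls as deposited were lost without pEF replicate 1 (1.67, 1.505 and 1.18). Those of KIF18A and KIF18B were also lost without pEF replicate 2 (2.24 and 1.45) and that of KIF18A without pgEpiSC replicate 3 (1.67). With no filter KIF22 and KIF18B lost their calls as deposited, and with a pseudocount of 5 KIF18A and KIF18B did. The call of KIF18B, which passed the filter through pgEpiSC alone, was also lost without the empirical Bayes trend.

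KIFC1, the minus-end motor that focuses spindle poles and clusters extra centrosomes, was at 3.15, 15.7, 7.17 and 2.95 TPM in pgEpiSC and 0.448 and 1.99 TPM in pEF. KIF2C, a depolymerase that corrects wrong kinetochore attachments, was at 1.78, 6.22, 4.75 and 1.56 TPM against 0.240 and 1.32 TPM. The groups did not overlap for either, but the lowest pgEpiSC value of KIF2C was close to pEF library 2. KIFC1 rose by 1.73 ± 0.60 (limma adjusted p = 0.0284) as deposited and 1.37 ± 0.28 after scaling. It lost the first call without pEF replicate 1 or 2 (1.20 and 2.25) or pgEpiSC replicate 3 (1.64). That call was also lost with no filter and with a pseudocount of 5. KIF2C was not called as deposited (1.29 ± 0.56, adjusted p = 0.0776) and was called after scaling (1.001 ± 0.22, adjusted p = 0.00587), though not without pEF replicate 1 (0.63, adjusted p = 0.0533). As deposited KIF2C was called without pgEpiSC replicate 1 or 4 (1.48 and 1.52). Its relative KIF2A, a depolymerase of both spindle and neuronal microtubules that was placed in no class, was more abundant, at 11.4, 22.4, 16.7 and 10.8 TPM against 3.31 and 7.54 TPM. KIF2A lay just short of the threshold as deposited (1.37 ± 0.53, adjusted p = 0.0504) and was called after scaling (0.86 ± 0.24, adjusted p = 0.0148). The call after scaling was lost without pEF replicate 1 (0.66), and KIF2A was called as deposited without pgEpiSC replicate 1 or 2 (1.48 and 1.18). KIF2B, a testis-enriched depolymerase, was listed at 0 in 5 libraries and at 0.00338 TPM in pgEpiSC library 1.

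**Figure D3:**
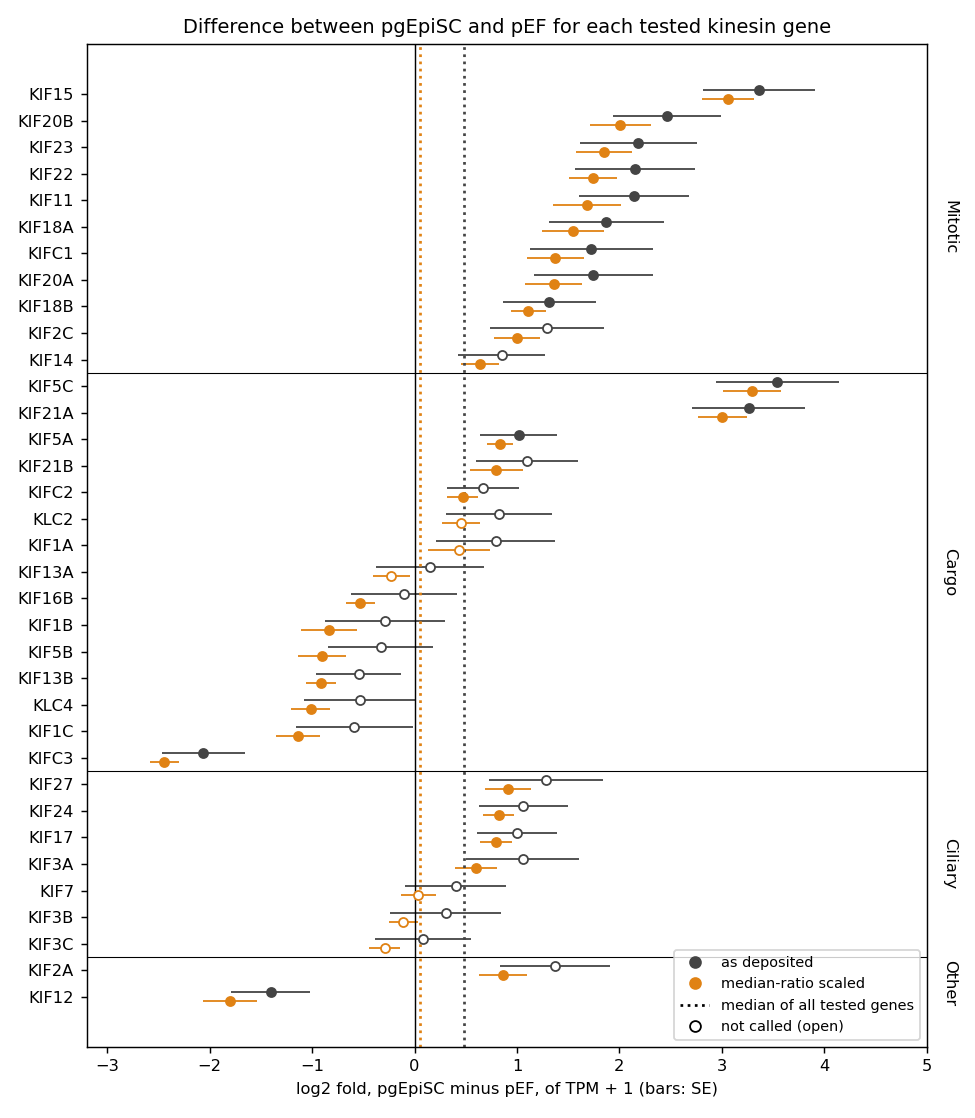
Points give the log2 fold of TPM + 1 (pgEpiSC minus pEF, horizontal axis) with its standard error from limma for the 35 tested members, grey as deposited and orange after median-ratio scaling, filled where called; dotted lines mark the median of all tested genes on each scale. Mitotic folds lie between 0.85 and 3.36 as deposited, while cargo folds run from -2.06 for KIFC3 to 3.54 for KIF5C.

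Most partners of the mitotic motors were higher in pgEpiSC too. Of 19 spindle and cytokinesis partners tested, 14 were called higher and 0 lower as deposited (18.0% and 9.43% of all tested genes), and 17 and 0 after scaling (28.6% and 29.8%). PLK1, the kinase that docks on many mitotic kinesins, was at 14.2 ± 11.7 TPM (SD, n = 4) in pgEpiSC and 0.977 ± 1.02 TPM (SD, n = 2) in pEF, a log2 fold of 2.75 ± 0.60 (limma adjusted p = 0.000491). CENPF, a kinetochore protein, TPX2, which activates Aurora A on the spindle, and BUB1B, a checkpoint kinase relative, rose by 2.66 ± 0.56, 2.46 ± 0.55 and 2.42 ± 0.57. CENPE, ANLN and NUMA1 are named outside the rule, after their values were seen. CENPE, the kinesin-7 that tethers kinetochores and is filed under its own name, was at 10.4, 15.4, 19.0 and 9.31 TPM against 0.772 and 3.65 TPM (2.29 ± 0.55, adjusted p = 0.00168). ANLN, the scaffold of the cytokinetic ring, was not called, at 5.02, 8.42, 9.50 and 5.06 TPM against 2.59 and 10.2 TPM, and NUMA1, which anchors spindle poles, was not either (0.19 ± 0.57, adjusted p = 0.8287). Those folds turned to -0.34 for NUMA1 and -0.19 for ANLN after scaling. Markers of cycling cells ran alongside: 6 of 6 tested were called higher on both scales (18.0% and 28.6% of all tested genes), and the 7 in the table summed to 123.4 to 272 TPM in pgEpiSC and to 11.0 and 32.6 TPM in pEF. CCNB1, the mitotic cyclin, was at 29.1, 58.2, 46.2 and 32.5 TPM against 1.14 and 5.25 TPM, and TOP2A, the topoisomerase of dividing cells, at 34.9, 56.1, 65.0 and 37.9 TPM against 2.17 and 7.64 TPM. MYBL2, a transcription factor of the cell cycle, and CDK1, the mitotic kinase, rose by 2.62 ± 0.60 and 2.51 ± 0.49. None of the 7 was at 0, and their part in the difference of the mitotic kinesins was not tested.

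The 2 fibroblast libraries differed from each other in mitotic kinesins and in genes of other kinds. Across the tested mitotic members pEF library 2 exceeded library 1 by a median of 4.43 times, with a range from 1.64 for KIF20B to 8.91 for KIF14. The same ratio had a median of 1.67 over all tested genes above 0 in both, 2.13 over cargo and 1.96 over ciliary members. In 10 of 11 mitotic members the ratio was above the median of all genes. KIF23 went from 0.429 to 2.39 TPM and KIF20A from 0.740 to 3.73 TPM between the libraries. CCNB1 was at 1.14 and 5.25 TPM in them. Some neuron and fibroblast markers moved as much. TUBB3 was at 1.93 and 16.5 TPM, STMN2 at 3.89 and 23.4 TPM and COL1A1, a fibroblast collagen, at 15.3 and 134 TPM. Not every marker of these lists did. SNAP25 was at 0.0967 and 0.0989 TPM, MAP2 at 1.17 and 1.24, COL3A1 at 228 and 441 and PDGFRA at 17.7 and 15.4 TPM. The part of these markers in the difference was not tested. With 1 library on each side this comparison has no test. In pgEpiSC, library 2 exceeded library 1 by a median of 2.93 times over mitotic and 4.45 times over cargo members, against 3.18 over all tested genes.

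**Figure D4:**
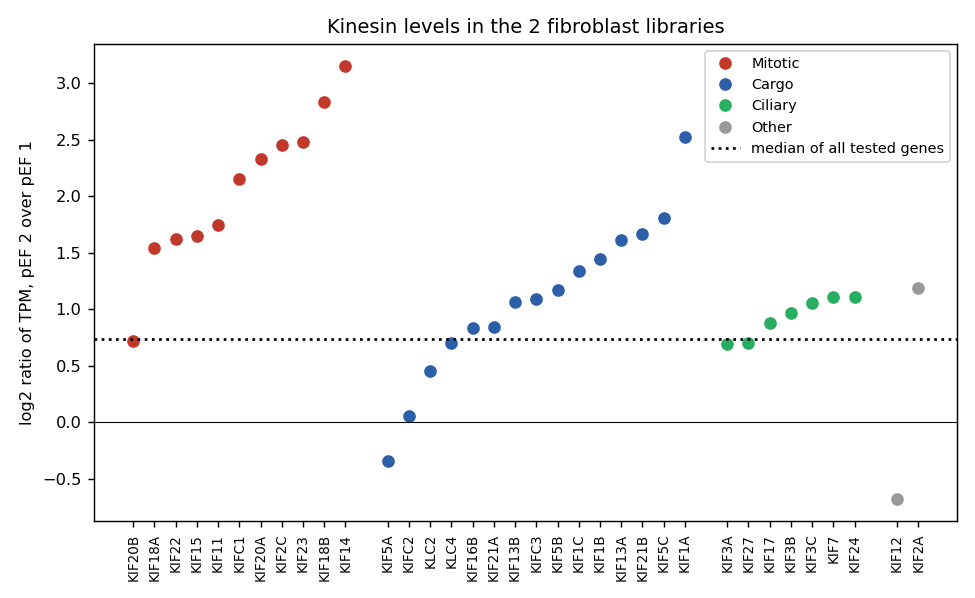
Each point is a tested member, with the log2 ratio of its TPM in pEF library 2 over pEF library 1 on the vertical axis and members ordered by ratio within each class. The mitotic members run from a ratio of 1.64 (KIF20B) to 8.91 (KIF14), and 10 of 11 lie above the dotted line, which marks the ratio of 1.67 for all tested genes.

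Among cargo motors, the conventional kinesin-1 heavy chains split by isoform. KIF5B, the ubiquitous heavy chain, was the most abundant kinesin of both groups, at 17.1, 45.6, 28.5 and 18.3 TPM in pgEpiSC and 21.4 and 47.9 TPM in pEF. Its groups overlapped as deposited, with no call (-0.33 ± 0.51, limma adjusted p = 0.661), and it was called lower in pgEpiSC after scaling (-0.90 ± 0.23, adjusted p = 0.0113), though not without pEF replicate 2 (-0.69, adjusted p = 0.124). KIF5C (ENSSSCG00000022919), an isoform best known from neurons, was at 5.61, 29.1, 23.8 and 6.198 TPM against 0.0819 and 0.287 TPM. KIF5A, the other neuronal isoform, was at 0.582, 1.98, 1.74 and 0.589 TPM against 0.0598 and 0.0471 TPM. Neither overlapped with pEF, and KIF5C was in pgEpiSC 87.9 times its pEF mean as deposited and 52.7 times after scaling, over a pEF level below 1 TPM. KIF5C rose by 3.54 ± 0.60 (adjusted p = 1.61e-05) as deposited and 3.30 ± 0.28 after scaling, KIF5A by 1.01 ± 0.37 (adjusted p = 0.0383) and 0.83 ± 0.13. Both genes passed the filter through pgEpiSC alone, which favoured this direction, so their calls are no support. The call of KIF5A as deposited was lost without pEF replicate 1 or 2 (1.02 and 1.01). It was also lost without the empirical Bayes trend, with no filter and with a pseudocount of 5 (limma adjusted p = 0.126, 0.153 and 0.111). Without pgEpiSC replicate 2 or 3 KIF5A fell below the filter. KIF5C held 24.1, 38.0, 44.1 and 24.7% of the heavy-chain TPM in pgEpiSC and 0.381 and 0.594% in pEF. How reads shared by these similar genes were divided is not given in the sources used here. Of 5 neuron markers in the table, 4 were tested: SNAP25 was called higher and STMN2 lower, while TUBB3 and MAP2 were not called as deposited (MAP2 was after scaling). SNAP25 passed the filter through pgEpiSC alone, which favoured its direction. Those 5 summed to 7.85 to 38.0 TPM in pgEpiSC and 7.10 and 41.4 TPM in pEF, none at 0, and their part in the levels of KIF5A and KIF5C was not tested.

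The light chains, which link kinesin-1 to its cargo, were divided differently as well. KLC2 was at 1.05, 5.41, 2.51 and 0.936 TPM in pgEpiSC and 0.625 and 0.854 TPM in pEF, and KLC4 at 0.719, 4.27, 1.86 and 0.697 TPM against 2.12 and 3.44 TPM. KLC2 was not called on either scale (0.83 ± 0.52, limma adjusted p = 0.234; 0.45 ± 0.19 after scaling, adjusted p = 0.0683). It was called higher after scaling without pgEpiSC replicate 4 (0.53, adjusted p = 0.0491) and with quantile normalization (0.51, adjusted p = 0.0399). KLC4 was called lower only after scaling (-1.01 ± 0.19, adjusted p = 0.00262; as deposited -0.53 ± 0.54, adjusted p = 0.487). Within the pair, KLC2 held 59.4, 55.9, 57.5 and 57.3% in pgEpiSC and 22.8 and 19.9% in pEF, ranges far apart with little spread inside each group. A further light chain outside the rule, KLC3, named after its values were seen, was at 0.321, 1.76, 0.792 and 0.323 TPM in pgEpiSC and listed at 0 in both pEF libraries.

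**Figure D5:**
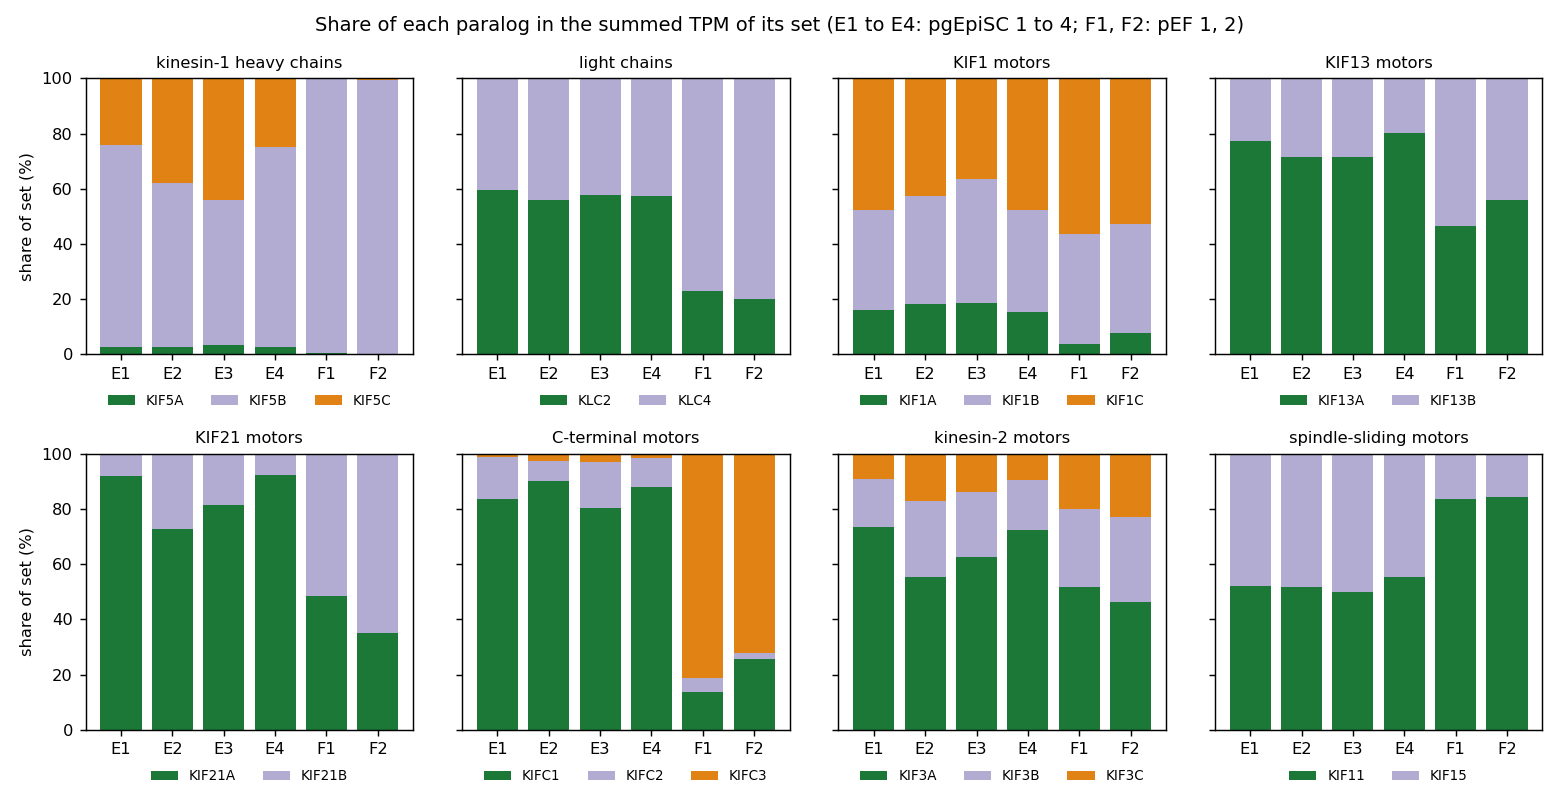
Stacked bars give the share of each paralog (percent, vertical axis) in the summed TPM of its set for each pgEpiSC library (E1 to E4) and each pEF library (F1, F2). KIF5C takes 24.1 to 44.1% of kinesin-1 heavy chains in pgEpiSC and 0.381 and 0.594% in pEF, and KIFC3 takes 72.3 and 81.1% of the C-terminal motors in pEF.

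Kinesin-3 motors, which carry vesicles and organelles, had no call as deposited. KIF1B, a carrier of mitochondria and synaptic vesicle precursors, was at 3.13, 15.4, 11.0 and 3.43 TPM in pgEpiSC and 5.05 and 13.8 TPM in pEF. KIF1C, which carries integrin vesicles and mRNA, was at 4.14, 16.6, 8.91 and 4.42 TPM against 7.19 and 18.2 TPM. KIF1A, an axonal vesicle motor, was at 1.38, 7.03, 4.47 and 1.39 TPM against 0.455 and 2.62 TPM. The groups overlapped as deposited for all 3, and none was called there. After scaling KIF1B (-0.84 ± 0.27, limma adjusted p = 0.0307) and KIF1C (-1.14 ± 0.22, adjusted p = 0.00290) were called lower and KIF1A was not called (0.44 ± 0.30, adjusted p = 0.245). The call of KIF1B was lost without pEF replicate 2 (-0.51) or pgEpiSC replicate 1 or 4 (-0.73 and -0.75), and KIF1A was called higher without pEF replicate 2 (0.96). With quantile normalization or columns rescaled to a common sum KIF1B was not called (limma adjusted p = 0.0945 and 0.0512). KIF13A, which carries recycling endosomes, was at 1.04, 3.44, 2.62 and 0.995 TPM against 0.839 and 2.57 TPM, and its relative KIF13B at 0.306, 1.36, 1.04 and 0.243 TPM against 0.972 and 2.03 TPM. KIF13B was called lower only after scaling (-0.91 ± 0.15, adjusted p = 0.00135), while the fold of KIF13A was 0.15 as deposited and -0.23 after scaling and called on neither. KIF13B held 22.8, 28.4, 28.5 and 19.6% of the pair in pgEpiSC and 53.7 and 44.1% in pEF. KIF16B, a motor of early endosomes, was at 0.895, 3.27, 2.29 and 0.784 TPM against 1.34 and 2.40 TPM and called lower only after scaling (-0.53 ± 0.14, adjusted p = 0.0125), but not without pEF replicate 1 or 2 (-0.57 and -0.49).

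KIF21A (ENSSSCG00000000779), a kinesin-4 that restrains microtubule growth and is known from axon guidance of eye muscle nerves, stood apart in pgEpiSC. It was at 8.17, 14.4, 13.4 and 9.16 TPM there and at 0.180 and 0.323 TPM in pEF, so that the lowest pgEpiSC library exceeded the highest pEF library many times over. The fold was 3.26 ± 0.55 (limma adjusted p = 1.48e-05) as deposited and 3.01 ± 0.24 (adjusted p = 3.68e-05) after scaling. KIF21A passed the filter through pgEpiSC alone, which favoured this direction, so its call is no support. KIF21B was at 0.701, 5.38, 3.005 and 0.759 TPM against 0.190 and 0.602 TPM and was called only after scaling (0.80 ± 0.25, adjusted p = 0.0274; as deposited 1.10 ± 0.50, adjusted p = 0.0973). That call was lost without pEF replicate 1 or 2 (0.66 and 0.94). KIF21B was called as deposited without pgEpiSC replicate 1 or 4 (1.36 and 1.35), and without pgEpiSC replicate 2 or 3 it fell below the filter.

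The C-terminal motors, which walk towards microtubule minus ends, were divided differently in the groups. KIFC3 (ENSSSCG00000002812), which acts at adherens junctions and the Golgi, was at 0.0372, 0.420, 0.243 and 0.0530 TPM in pgEpiSC and 2.65 and 5.64 TPM in pEF. It fell by 2.06 ± 0.41 on the log2 scale (limma adjusted p = 0.000141) as deposited and by 2.44 ± 0.14 after scaling, with the pEF mean 22.0 times that of pgEpiSC as deposited and 42.7 times after scaling. KIFC3 passed the filter through pEF alone, which favoured this direction, so its call is no support. With either pEF library left out it had 1 TPM or more in only 1 library. It then dropped below the filter and could not be tested. Without any 1 pgEpiSC library its call stood as deposited. KIFC2, described in neurons, was at 0.570, 1.28, 1.49 and 0.350 TPM against 0.168 and 0.174 TPM and was called higher only after scaling (0.47 ± 0.15, adjusted p = 0.0300; as deposited 0.67 ± 0.35, adjusted p = 0.156), but not without pEF replicate 1 or 2 or pgEpiSC replicate 1 (0.53, 0.41 and 0.44). Without pgEpiSC replicate 2 or 3 KIFC2 fell below the filter. With quantile normalization or columns rescaled to a common sum KIFC2 was not called (limma adjusted p = 0.194 and 0.101). KIFC3 held 0.988, 2.41, 2.73 and 1.58% of the summed TPM of KIFC1, KIFC2 and KIFC3 in pgEpiSC and 81.1 and 72.3% in pEF. For KIFC1 the shares were 83.9, 90.3, 80.5 and 88.0% in pgEpiSC and 13.7 and 25.5% in pEF.

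Cargo adaptors and the opposing motor dynein depended on the scale. Of 19 tested cargo adaptors, dynein and dynactin subunits, 1 was called higher and 1 lower as deposited (18.0% and 9.43% of all tested genes), and 3 higher and 11 lower after scaling (28.6% and 29.8%), with medians of -0.37 and -0.80. KTN1, the kinesin receptor kinectin, was the 1 called higher, at 48.5, 74.6, 85.2 and 49.1 TPM against 19.6 and 28.6 TPM (1.36 ± 0.47, limma adjusted p = 0.0280), a call lost after scaling (0.79 ± 0.32, adjusted p = 0.0651). DYNC1LI2, a dynein light intermediate chain, was the 1 called lower, at 4.90, 11.8, 8.83 and 5.51 TPM against 17.7 and 27.3 TPM (-1.46 ± 0.53, adjusted p = 0.0352; -2.02 ± 0.19 after scaling).

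No ciliary kinesin was called as deposited. KIF3A, a subunit of the heterotrimeric kinesin-2 that drives intraflagellar transport, was at 4.78, 8.98, 7.88 and 4.995 TPM in pgEpiSC and 2.01 and 3.25 TPM in pEF. Its partner KIF3B was at 1.13, 4.47, 2.94 and 1.24 TPM against 1.10 and 2.16 TPM, and the alternative partner KIF3C at 0.579, 2.79, 1.72 and 0.651 TPM against 0.777 and 1.61 TPM. The groups did not overlap for KIF3A and did for the other two. KIF3A was called only after scaling (0.60 ± 0.21, limma adjusted p = 0.0358; as deposited 1.06 ± 0.55, adjusted p = 0.151), and with any library but pgEpiSC replicate 2 left out it was not called there (0.52 to 0.63). KIF3B and KIF3C were called on neither scale, and their folds of 0.30 and 0.08 as deposited turned to -0.11 and -0.29 after scaling. KIFAP3, the non-motor subunit that completes the KIF3A and KIF3B complex and is no member by the rule, went the opposite way, at 2.16, 5.25, 4.91 and 2.87 TPM against 12.4 and 16.8 TPM. KIFAP3 was called lower on both scales (-1.74 ± 0.55, adjusted p = 0.0152; -2.28 ± 0.19, adjusted p = 5.16e-05). Its TPM was 0.453, 0.585, 0.623 and 0.574 times that of KIF3A in pgEpiSC and 6.15 and 5.17 times in pEF, a ratio examined after the values were seen.

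KIF27, a relative of KIF7 linked to motile cilia, was at 2.78, 5.26, 6.30 and 3.67 TPM against 0.919 and 1.49 TPM. KIF24, which holds back cilium growth at the centriole, was at 0.763, 3.02, 2.48 and 0.757 TPM against 0.146 and 0.316 TPM. KIF17, the homodimeric kinesin-2, was at 0.467, 2.79, 1.44 and 0.573 TPM against 0.0542 and 0.0995 TPM. None of these overlapped between the groups, and each was short of the threshold as deposited (limma adjusted p = 0.0795, 0.0640 and 0.0505) and called higher after scaling (0.91 ± 0.22, 0.82 ± 0.15 and 0.80 ± 0.16). KIF24 and KIF17 fell below the filter without pgEpiSC replicate 2 or 3 and were called as deposited without pgEpiSC replicate 1 (1.24 and 1.18) or 4 (1.25 and 1.15). KIF7, the Hedgehog regulator of the ciliary tip, was at 0.905, 4.00, 1.92 and 0.741 TPM against 0.655 and 1.41 TPM, overlapping and not called on either scale (0.40 ± 0.49 and 0.04 ± 0.17), with -0.13 when columns were rescaled to a common sum. KIF9 and KIF19, motors of motile cilia, did not pass the filter, with highest values of 0.524 and 0.564 TPM. Among 6 motile-cilia markers 1 passed the filter, CCDC39, called higher at 2.41, 4.97, 6.77 and 2.96 TPM against 0.616 and 0.982 TPM. It passed through pgEpiSC alone, which favoured this direction, so its call is no support. The 6 summed to 2.67 to 7.54 TPM in pgEpiSC and 0.767 and 1.27 TPM in pEF, with FOXJ1, the master regulator of motile cilia, no higher than 0.0884 TPM in any library. Of 28 tested genes of intraflagellar transport and the BBSome, KIFAP3 among them, 3 were called higher and 1 lower as deposited, and 3 and 5 after scaling. These shares lie below the 18.0% and 9.43%, and the 28.6% and 29.8%, of all tested genes. TTC21B, a subunit of the retrograde train, had the largest fold of the 3, at 11.8, 23.3, 19.7 and 10.5 TPM against 1.69 and 3.26 TPM (2.28 ± 0.54, adjusted p = 0.00128), followed by DYNC2H1, the ciliary dynein heavy chain (1.53 ± 0.54, adjusted p = 0.0311), and BBS7 (1.52 ± 0.56, adjusted p = 0.0387).

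KIF12 and KIF26B were the remaining members and were higher in fibroblasts. KIF12, known from kidney and liver epithelia, was at 0.136, 0.569, 0.426 and 0.124 TPM in pgEpiSC and 3.07 and 1.91 TPM in pEF, and was called lower (-1.40 ± 0.38, limma adjusted p = 0.00524; -1.80 ± 0.26 after scaling). KIF26B, an atypical kinesin of cell adhesion and WNT5A signalling, was at 0.0980, 0.156, 0.159 and 0.102 TPM against 0.413 and 1.04 TPM and fell short of the filter, so it has no test. The groups did not overlap for either gene. KIF12 passed the filter through pEF alone, which favoured this direction, so its call is no support. Without either pEF library it fell below the filter and could not be tested.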

How the data were processed

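RNA-seq of 4 pgEpiSC and 2 pEF libraries was used as a gene table of TPM, which the authors deposited as 1 value per gene and library. The submitters' processing notes name STAR 2.6.0c and kallisto 0.44.0. The genome build, the annotation and the tool behind the TPM values were not given in the sources used here. Deposited TPM columns sum to far less than the usual total, so each column's listed sum is given in the results and read depth is unknown. Symbols were given for 69.8% of the 20132 rows, and rows of 1 symbol were summed, leaving 20131 genes.

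Genes with at least 1 TPM in at least 2 libraries (10424) were compared with limma 3.58.1 in R 4.3.3 on log2(TPM + 1), with an empirical Bayes trend and Benjamini-Hochberg adjustment over all tested genes at 0.05. A pseudocount of 1 makes folds of low genes too small. The same fit was run after median-ratio scaling. The limma step was tested on simulated data drawn around the scaled gene means. Alternatives were other pseudocounts, filters, scalings, no trend, a replicate block and each library left out. Averaging pgEpiSC 1 and 4 was added after seeing the data. The kinesins, their classes and the other lists were chosen with earlier results of these data known. By the rule for named genes, every kinesin is accounted for, with values in each library for members called on either scale, at a mean of at least 10 TPM or in a paralog set, and up to 4 called genes by absolute fold come from each other list.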

Additional observations from a re-analysis of the deposited data

Results flagged for a closer look

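KIF1C stood out in 1 pgEpiSC library after median-ratio scaling. Its scaled levels were 5.75, 7.65, 5.92 and 6.03 in pgEpiSC libraries 1 to 4, so library 2 lay above the others by a gap of 0.853 of the whole range, past the critical value of Dixon's test for 4 samples. Among the 35 tested kinesins this was the 1 such case after scaling, with 0 as deposited, and chance flags about 5% of such groups.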

How the results depend on the processing

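With 2 fibroblast libraries and no read depth, small differences and low levels are poorly resolved, and calls depend on the scale. Over all tested genes, calls higher numbered 1874 and calls lower 983 as deposited. They became 2984 and 3109 with median-ratio scaling and 3374 and 2779 with quantile normalization. With columns rescaled to a sum of 1000000, 2924 were lower. A mean of at least 5 TPM gave 1185 and 368, no filter 787 higher and a pseudocount of 5 967 higher. Leaving out 1 library gave 360 to 2257 higher and 194 to 1425 lower, and after scaling 1874 to 2740 and 1978 to 3135.

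The 9 mitotic calls were 4 with no filter, 5 with a pseudocount of 5 and 1 to 10 with 1 library left out (1 without pEF replicate 1, 6 without pEF replicate 2 and 6 without pgEpiSC replicate 3). After scaling they were 9 to 11. Cargo calls higher, 3 as deposited, were 5 with median-ratio or quantile scaling, and 2 to 6 after scaling with 1 library left out. Cargo calls lower, 1 as deposited, were 5 when rescaled to a common sum, 0 at a mean of at least 5 TPM, 7 with median-ratio and 6 with quantile scaling. With 1 library left out they were 0 to 1, and 3 to 7 after scaling. Ciliary calls higher, 0 as deposited, were 3 when rescaled, 4 with median-ratio or quantile scaling, and 2 with a pseudocount of 0.1 or with pgEpiSC 1 and 4 averaged. With 1 library left out they were 0 to 2, and 1 to 3 after scaling. KIFC3, the 1 cargo member called lower as deposited, was not tested at a mean of at least 5 TPM or without either pEF library. The 0 calls lower there are therefore no lost call. Without pgEpiSC replicate 2 or 3 the cargo members KIF5A, KIF21B and KIFC2 and the ciliary KIF17 and KIF24 were not tested either. The cause of other changes was not tested.

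Some folds changed sign. KIF13A went to -0.51 (rescaled sum), -0.23 (median-ratio) and -0.093 (quantile), and ran from -0.33 to 0.63 with 1 library left out. KIF3C went likewise to -0.65, -0.29 and -0.20 (-0.20 to 0.36), KIF3B to -0.35 and -0.11 with the rescaled sum and the median ratio, and KIF7 to -0.13 with the rescaled sum. KIF16B was 0.068 with pgEpiSC 1 and 4 averaged and 0.012 with the replicate block (-0.37 to 0.16). With 1 library left out KIF1B ran from -0.93 to 0.36, KIF1C from -1.20 to 0.027 and KIF5B from -0.89 to 0.24. After scaling such ranges were -0.52 to 0.063 for KIF13A, -0.090 to 0.96 for KIF1A and -0.068 to 0.14 for KIF7. Some calls made with median-ratio scaling were absent under other scalings. KIFC2 and KIF1B were called with neither quantile normalization nor the rescaled sum. KIF3A, KIF14, KIF16B and KIF21B were not called with the rescaled sum (limma adjusted p = 0.160, 0.0723, 0.0772 and 0.0837).

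The labels do not tie replicate numbers across groups, and deviations of same-numbered libraries correlated at 0.0982 and 0.172 across genes, against 0.142 for pgEpiSC 4 with pEF 1. With the replicate block 9 mitotic, 2 cargo and 0 ciliary members were called higher as deposited, and 11, 4 and 2 after scaling, where 5 cargo members were called lower. The block ended the call of KIF5A as deposited and those of KIF16B, KIF27, KIF2A, KIF3A, KIF5B and KIFC2 after scaling, while KIF2A was called as deposited.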
